A study of Homo sapiens with 12 samples.

Results

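The enzymes of glycolysis, the pentose phosphate pathway and the pyruvate dehydrogenase and TCA cycle steps were followed in MDA-MB-231, an established line of human breast cancer of the triple-negative type, at the level of RNA and of ribosome footprints. The members were 43 named genes, taken by symbol, of which 39 were listed in the expression tables of all 12 libraries, out of 6777 genes in all. These were 15 of 17 glycolysis genes, 5 of 6 pentose phosphate genes and 19 of 20 genes of the TCA group, and PFKFB4, ALDOC, RPIA and CS are not analysed here. Cells received 10 nM AZD0095, an inhibitor of the lactate exporter MCT4 (encoded by SLC16A3), or the solvent DMSO, for 4 h in both cases, and neither group carries a genetic change by the labels. There were 3 AZD0095 and 3 DMSO libraries of RNA, and 3 AZD0095 and 3 DMSO libraries of ribosome-protected fragments. The series asks what accumulating lactate does to transcription and translation. All libraries came from 1 cell line and 1 dose and time, and no label says that replicates came from different cultures, so the tests weigh the treatment against a spread that may be technical.

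Glycolysis splits glucose into pyruvate in the cytosol, and in cancer cells much of that pyruvate is turned into lactate, which leaves through carriers such as MCT4. The pentose phosphate pathway branches off glucose phosphate and yields NADPH and ribose phosphate for nucleotides. Pyruvate that enters mitochondria is converted to acetyl-CoA by the pyruvate dehydrogenase complex and oxidised in the TCA cycle, and pyruvate carboxylase refills the cycle. Many glycolytic genes are known targets of the hypoxia-inducible factor HIF-1, whose binding sites hold the core ACGTG among other forms.

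Stretches upstream of the start sites of ENO2, GAPDH and PGK1 are printed as examples that hold that core. They do not show how common it is in promoters of the glycolytic members. They are RefSeq sequences of GRCh38.p14 on the plus strand, each the 250 bases before an annotated start: chr12:6914330-6914579 for ENO2, chr12:6535014-6535263 for GAPDH, which lies inside the outermost annotated span of that gene, and chrX:78103998-78104247 for PGK1. Capitals mark ACGTG or its reverse complement CACGT, which overlap in the GAPDH window.
ENO2: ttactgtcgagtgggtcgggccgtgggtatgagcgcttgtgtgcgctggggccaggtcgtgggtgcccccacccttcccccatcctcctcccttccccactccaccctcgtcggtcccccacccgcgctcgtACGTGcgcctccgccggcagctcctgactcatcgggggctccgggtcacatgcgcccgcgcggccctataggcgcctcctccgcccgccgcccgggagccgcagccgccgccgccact
GAPDH: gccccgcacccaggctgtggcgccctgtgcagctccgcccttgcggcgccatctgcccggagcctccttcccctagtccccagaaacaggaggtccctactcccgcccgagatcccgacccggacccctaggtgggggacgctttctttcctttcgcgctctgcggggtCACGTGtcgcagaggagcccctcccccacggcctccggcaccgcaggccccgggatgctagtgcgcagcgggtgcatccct
PGK1: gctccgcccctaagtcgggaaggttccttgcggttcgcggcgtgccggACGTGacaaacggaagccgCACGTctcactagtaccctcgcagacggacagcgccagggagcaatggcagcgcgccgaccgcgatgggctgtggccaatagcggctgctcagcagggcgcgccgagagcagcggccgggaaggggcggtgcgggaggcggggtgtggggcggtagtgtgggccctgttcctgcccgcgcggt

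The letters ACGTG were searched on both strands of all such windows, with several windows where a gene has several starts, and 37 of the 39 members had a window. They were present in 12 of 33 glycolysis windows (36.4%), 1 of 5 pentose phosphate windows (20%) and 5 of 23 windows of the TCA group (21.7%), beside 1989 of 8293 windows over all genes with a match (24.0%). Counted by gene, 9 of 14 glycolysis, 1 of 5 pentose phosphate and 5 of 18 TCA genes had such a window. Over all genes these were 1766 of 5656. A gene with several windows has more chances to hold the letters, so the counts by gene and by window differ. None of the 7 HK1 windows held these letters, nor did the single windows of PFKL, PGAM1, ENO1 and PKM, while both HK2 windows and the 3 ALDOA windows did. The form CACGTG, as in the GAPDH window, was in 3 of 33 glycolysis windows (9.1%) and 750 of 8293 windows over all genes (9.0%). A match of letters is a description and says nothing of whether a factor binds there.

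Values are FPKM, fragments scaled to gene length and sequencing depth, as the authors deposited them, and all genes listed lay above 1 FPKM in every library. Footprint libraries were shallow and unequal. By the steps of their values, 141125, 217364 and 501345 reads stood behind the AZD0095 libraries and 123854, 107086 and 192322 behind the DMSO libraries, so AZD0095 libraries were deeper on average. No such steps were found in RNA, whose depth is therefore not known. The median within-group standard deviation of a member on the log2 scale was 0.06 in AZD0095 RNA and 0.05 in DMSO RNA, and 0.27 in AZD0095 footprints and 0.36 in DMSO footprints. All 8 markers of the mesenchymal line were listed, with VIM at 2743 FPKM in AZD0095 RNA and 2522 FPKM in DMSO RNA, as were 5 of 10 luminal genes, KRT8 and KRT18 included, and 0 of 6 fibroblast or immune genes.

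Several glycolytic mRNAs were among the most abundant of the cells in both treatments. GAPDH, the dehydrogenase of the pathway that yields NADH, led with 3197, 3089 and 3215 FPKM in the AZD0095 RNA libraries, against 3055, 3014 and 3102 FPKM in the DMSO RNA libraries. The enolase ENO1 followed with 1995 ± 43.4 FPKM in AZD0095 and 2009 ± 24.1 FPKM in DMSO (SD, n = 3 each), and the pyruvate kinase PKM with 1143 ± 36.0 FPKM in AZD0095 and 1141 ± 13.02 FPKM in DMSO. These genes have processed copies elsewhere in the genome, and how reads were shared among copies is not given in the sources used here.

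The other glycolytic members were lower. In RNA the triose phosphate isomerase TPI1 had 510.5 ± 15.9 FPKM in AZD0095 and 489 ± 8.89 FPKM in DMSO, and the aldolase ALDOA 484 ± 17.2 FPKM in AZD0095 and 458 ± 11.1 FPKM in DMSO. The mutase PGAM1 had 412 ± 14 FPKM in AZD0095 and 392.5 ± 6.72 FPKM in DMSO, and the ATP-yielding kinase PGK1 326 ± 13.4 FPKM in AZD0095 and 307 ± 5.54 FPKM in DMSO. All of these lay below GAPDH, ENO1 and PKM. The glucose phosphate isomerase GPI stood at 156 ± 7.45 FPKM in AZD0095 and 150.4 ± 1.202 FPKM in DMSO. The lowest member was PFKFB2, a bifunctional enzyme that sets the level of the phosphofructokinase activator, with 3.53, 4.54 and 5.39 FPKM in AZD0095 libraries and 4.74, 5.51 and 4.70 FPKM in DMSO libraries. Between these extremes the pathway spanned most of the range of the tables, since GAPDH lay at percentile 99.9 of all genes in DMSO RNA and PFKFB2 at percentile 5.96.

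The other pathways ran at lower levels. In the pentose phosphate pathway the RNA of the transketolase TKT averaged 141 ± 3.88 FPKM in AZD0095 and 138 ± 2.00 FPKM in DMSO, and that of the transaldolase TALDO1 120.2 ± 2.91 FPKM in AZD0095 and 116 ± 1.03 FPKM in DMSO. PGD, the phosphogluconate dehydrogenase that makes NADPH, stood at 102 ± 6.17 FPKM in AZD0095 and 103 ± 1.78 FPKM in DMSO, the lactonase PGLS at 45.4 ± 4.81 FPKM in AZD0095 and 48.1 ± 0.391 FPKM in DMSO, and the epimerase RPE was lowest at 19.1 ± 3.92 FPKM in AZD0095 and 16.7 ± 1.82 FPKM in DMSO. In the TCA group the malate dehydrogenase of the cytosol, MDH1, was highest with 155 ± 5.21 FPKM in AZD0095 and 150.1 ± 7.77 FPKM in DMSO. The mitochondrial NADP isocitrate dehydrogenase IDH2 was lowest with 9.73 ± 0.690 FPKM in AZD0095 and 8.90 ± 0.925 FPKM in DMSO.

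**Figure D1:**
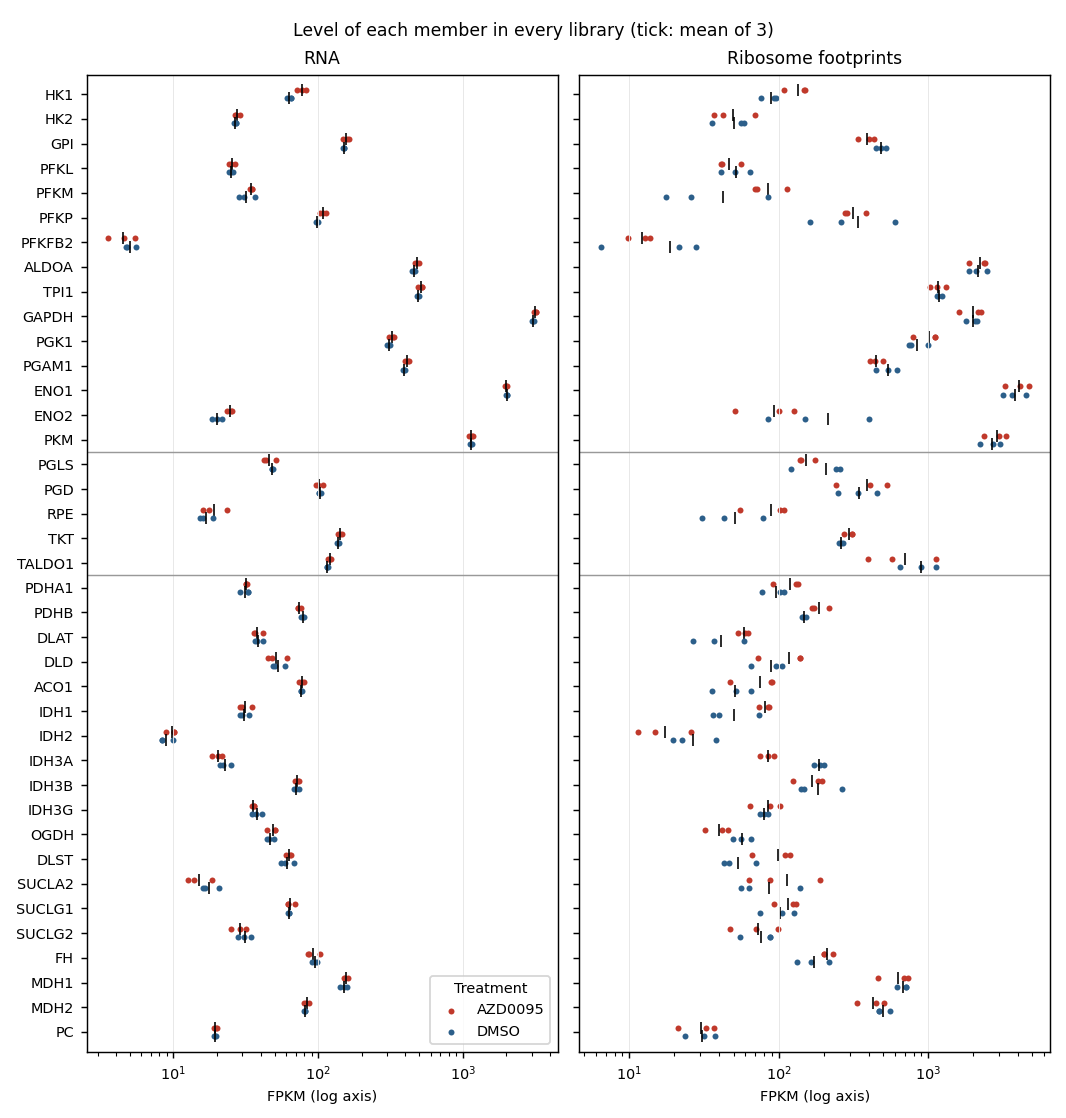
FPKM on a log axis of the 39 members in every library, RNA on the left and ribosome footprints on the right, with AZD0095 in red above DMSO in blue and a tick at each mean of 3 libraries. RNA points of a member lie close together, while footprint points spread, as for ENO2, PFKM and TALDO1.

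After 4 h with AZD0095, HK1 was the only member whose RNA changed by the test. HK1 encodes the hexokinase that phosphorylates glucose in most tissues. Its RNA stood at 71.4, 77.0 and 82.4 FPKM in the AZD0095 libraries, against 60.5, 64.6 and 64.9 FPKM in the DMSO libraries. Every AZD0095 library lay above every DMSO library. The log2 fold change was 0.28 ± 0.07 (SE, limma adjusted p = 0.041, over 6777 genes). The call rested on a small margin and was lost on leaving out AZD0095 replicate 2 or 3 or any single DMSO library, when the adjusted p ran to 0.14, and with median centring, quantile normalization or a constant prior variance. In a bulk culture, more cells with a transcript and more of it per cell cannot be told apart.

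So 1 of 39 members was called higher and 0 lower in RNA. Over all genes 8.04% were called, 5.03% higher and 3.01% lower, so the members' share was not above the background. By pathway, 1 of 15 glycolysis genes rose and 14 did not pass, and none of the 5 pentose phosphate or 19 TCA genes passed. The RNA of 4 members did not overlap between the groups and lay higher with AZD0095 (HK1, ENO2, PFKP and TALDO1), against 17.7% of all genes, and that of 1 member, PDHB, lay lower, against 11.5% of all genes.

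ENO2, the enolase typical of neurons, came next. Its RNA had 23.3, 25.5 and 25.02 FPKM in AZD0095 libraries and 21.6, 18.4 and 20.004 FPKM in DMSO libraries. The groups did not overlap, and the log2 fold change of 0.29 ± 0.08 was not called (limma adjusted p = 0.062). PFKP, the platelet-type phosphofructokinase, had 109, 102 and 114 FPKM in AZD0095 libraries and 97.4, 100.4 and 97.6 FPKM in DMSO libraries, with a log2 fold change of 0.13 ± 0.05 (limma adjusted p = 0.17). The ENO2 value was close to the 0.28 ± 0.07 of HK1, with a larger SE, and that of PFKP was smaller.

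The glycolytic genes leaned to one side in RNA by small amounts. Of the 15, 13 had a positive log2 fold change and 2 a negative one, with a median of 0.06 and a range of -0.14 to 0.29, and with quantile normalization 12 were positive, 2 negative and GAPDH was at 0. The steps from aldolase to the mutase lay between 0.05 and 0.08, with ALDOA at 0.08, TPI1 at 0.06, GAPDH at 0.05, PGK1 at 0.08 and PGAM1 at 0.07. ENO1 was at -0.01 and PKM at 0.00. Over all 6777 genes 52.3% were positive, and the median was 0.01. Of 11 further listed genes of glucose entry and glycolysis 8 were positive, with a median of 0.08, so the lean was not particular to the members. The other hexokinase HK2 was at 0.04, GPI at 0.05, PFKL at 0.02, PFKM at 0.11 and PFKFB2 at -0.14.

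In the pentose phosphate pathway the median was 0.04, with 3 of 5 genes positive. The oxidative enzymes PGLS and PGD lay at -0.09 and -0.02. The enzymes of the reversible, non-oxidative branch lay at 0.17 for RPE, 0.04 for TKT and 0.06 for TALDO1. None approached the threshold, the lowest limma adjusted p among them being 0.50.

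In the TCA group the median was 0.01, with 11 of 19 genes positive and a range of -0.23 to 0.12. The lowest was SUCLA2, the ATP-forming succinyl-CoA ligase subunit, with 18.5, 13.96 and 12.6 FPKM in AZD0095 libraries and 20.6, 16.4 and 15.9 FPKM in DMSO libraries. In both treatments replicate 1 was the highest of the 3 libraries, and the groups overlapped. Its log2 fold change was -0.23 ± 0.15 (limma adjusted p = 0.40), and with replicates 2 and 3 alone it was -0.27 (limma adjusted p = 0.039). IDH3A, the catalytic subunit of the NAD isocitrate dehydrogenase, was at -0.16 (limma adjusted p = 0.31), and IDH2 was highest at 0.12. Of the pyruvate dehydrogenase complex, PDHA1 lay at 0.03, PDHB at -0.09, DLAT at -0.02 and DLD at -0.04. The 16 members with a mitochondrial product had a median of -0.00 and the 3 with a cytosolic product, ACO1, IDH1 and MDH1, a median of 0.03.

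**Figure D2:**
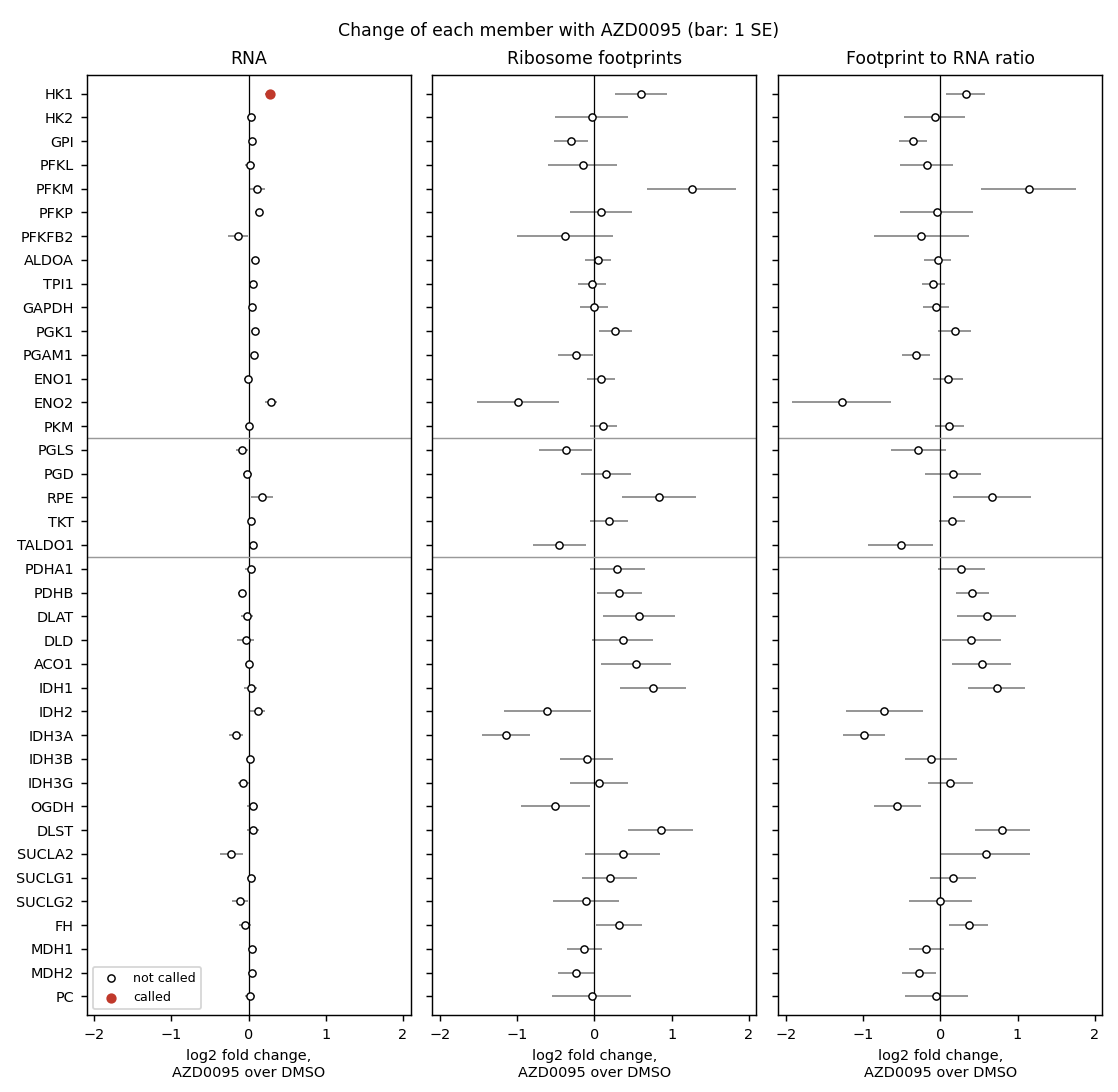
The log2 fold change of each member, AZD0095 over DMSO, with a bar of 1 SE, in RNA, footprints and their ratio, ordered by pathway with grey lines between glycolysis, pentose phosphate and the TCA group. Filled red marks a called member, and HK1 in RNA is the only one. Changes in RNA stay between -0.23 and 0.29, while those in footprints run from -1.15 to 1.26.

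Footprints count ribosome-protected fragments and so follow how much of an mRNA is being translated. No member was called in footprints, nor any other gene (0.0% of all genes by limma), and at an unadjusted p under 0.05 there were 2 of 39 members against 7.82% of all genes. Glycolysis had a median log2 fold change of -0.00, the pentose phosphate genes 0.15 and the TCA group 0.20, beside 0.04 over all genes, and with quantile normalization the glycolysis median was 0.09. Further listed genes had footprint medians of 0.22 for glucose entry and glycolysis, 0.27 for pentose phosphate and 0.09 for pyruvate and TCA. The footprints of 4 members did not overlap and lay higher with AZD0095 (HK1, TKT, PDHB and IDH1; all genes: 7.19%), and those of 3 lay lower (GPI, IDH3A and OGDH; all genes: 5.77%). PDHB, the beta subunit of the pyruvate dehydrogenase E1 enzyme, lay higher in footprints and lower in RNA without overlap. Its footprints stood at 218, 171 and 168 FPKM in AZD0095 libraries and 145, 143 and 153 FPKM in DMSO libraries, and its RNA at 76.0, 73.0 and 72.0 FPKM in AZD0095 libraries and 80.1, 78.6 and 76.4 FPKM in DMSO libraries. Its ratio change was 0.41 ± 0.21 (limma adjusted p = 0.61).

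IDH3A had the smallest adjusted p of the members in footprints. Its footprints stood at 84.8, 75.2 and 92.9 FPKM in AZD0095 libraries, against 189.5, 202 and 171 FPKM in DMSO libraries. The groups lay far apart, while its RNA overlapped, with 21.5, 20.4 and 18.6 FPKM in AZD0095 libraries and 25.1, 22.1 and 21.0 FPKM in DMSO libraries. The log2 fold change in footprints was -1.15 ± 0.31 (limma adjusted p = 0.54), and it stayed between -1.22 and -1.07 under every alternative setting, none of which called it. In reads, its coverage came to 12.0, 16.3 and 46.6 reads per kilobase in AZD0095 libraries and 23.5, 21.7 and 33.0 in DMSO libraries. For the partner subunits of the same enzyme the log2 fold change was -0.10 ± 0.34 for IDH3B and 0.06 ± 0.37 for IDH3G, and the difference between subunits was not tested.

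Further TCA members varied in both directions, and none passed the adjustment. DLST, the succinyltransferase of the oxoglutarate dehydrogenase complex, had 66.2, 111 and 119 FPKM in AZD0095 footprints and 46.4, 43.4 and 71.0 FPKM in DMSO footprints, a log2 fold change of 0.86 ± 0.42 (limma adjusted p = 0.66). OGDH, which encodes the first subunit of that complex, had 32.1, 41.7 and 46.1 FPKM in AZD0095 footprints and 49.6, 65.3 and 55.9 FPKM in DMSO footprints, a log2 fold change of -0.51 ± 0.44 (limma adjusted p = 0.82). So OGDH lay lower and DLST higher in the AZD0095 libraries, and neither passed the test. These values do not describe the complex as a whole.

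The cytosolic isocitrate dehydrogenase IDH1 had 86.0, 84.4 and 73.6 FPKM in AZD0095 footprints and 40.0, 36.6 and 73.5 FPKM in DMSO footprints. The groups touched without overlapping, at a log2 fold change of 0.76 ± 0.43 (limma adjusted p = 0.71), and its mitochondrial relative IDH2 was at -0.61 ± 0.56. All 4 listed pyruvate dehydrogenase genes were positive in footprints, from 0.30 for PDHA1 to 0.58 for DLAT, with PDHB at 0.32 and DLD at 0.36, and the lowest limma adjusted p among them was 0.81. The succinyl-CoA ligase subunits lay at 0.36 for SUCLA2, 0.20 for SUCLG1 and -0.11 for SUCLG2. The fumarase FH was at 0.32, the malate dehydrogenases MDH1 and MDH2 at -0.13 and -0.23, the cytosolic aconitase ACO1 at 0.54 and pyruvate carboxylase, PC, at -0.04.

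The largest positive and negative differences of glycolytic footprints were those of PFKM and ENO2. PFKM, the muscle-type phosphofructokinase, had 114, 69.8 and 71.9 FPKM in AZD0095 footprints and 17.7, 25.9 and 84.6 FPKM in DMSO footprints. The AZD0095 libraries lay above DMSO replicates 1 and 2 and overlapped DMSO replicate 3, which gave a log2 fold change of 1.26 ± 0.57 (limma adjusted p = 0.63). In DMSO replicates 1 and 2 the gene had 2.19 and 2.77 reads per kilobase, and the value was 1.90 without DMSO replicate 3 and 0.81 without DMSO replicate 1.

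ENO2 went the other way in footprints, with 51.0, 100.1 and 127 FPKM in AZD0095 libraries and 85.1, 403 and 151 FPKM in DMSO libraries. DMSO replicate 2 stood far above the other DMSO libraries, and the groups overlapped. The log2 fold change was -0.99 ± 0.53 (limma adjusted p = 0.69), and -0.38 without DMSO replicate 2. The same library was the highest for PFKP, at 163, 601 and 261 FPKM over DMSO replicates 1 to 3, against 386, 279 and 286 FPKM in the AZD0095 libraries, where the log2 fold change was 0.09 ± 0.40 and turned sign, being 0.60 without DMSO replicate 2 and -0.34 without DMSO replicate 1.

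HK1 footprints lay in the same direction as its RNA, at 147, 109 and 150.1 FPKM in AZD0095 libraries and 76.5, 92.8 and 95.6 FPKM in DMSO libraries. The groups did not overlap, and the log2 fold change of 0.60 ± 0.34 was not called (limma adjusted p = 0.70). GPI footprints were at 337, 405 and 438 FPKM in AZD0095 libraries and 484, 523 and 446 FPKM in DMSO libraries, a log2 fold change of -0.30 ± 0.22 (limma adjusted p = 0.78). The abundant enzymes were nearly level, with ALDOA at 0.04, TPI1 at -0.03, GAPDH at -0.00, ENO1 at 0.09 and PKM at 0.12, each with an SE of 0.17 to 0.18, while PGK1 was at 0.27 and PGAM1 at -0.24. PFKFB2 rested on 2, 4 and 10 reads in the AZD0095 libraries and 5, 1 and 6 reads in the DMSO libraries, so its log2 fold change of -0.38 ± 0.63 is not resolved at this depth.

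In glycolytic footprints, replicate 1 lay low in both treatments. The members' median difference between replicate 1 and the mean of replicates 2 and 3 was -0.35 on the log2 scale in AZD0095 and -0.35 in DMSO, against 0.03 in AZD0095 and 0.00 in DMSO over all genes. The part of this difference in the comparison of treatments was not tested.

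The pentose phosphate genes were spread. RPE had 103, 54.9 and 109 FPKM in AZD0095 footprints and 78.2, 30.9 and 43.0 FPKM in DMSO footprints, a log2 fold change of 0.84 ± 0.48 (limma adjusted p = 0.71). TALDO1 had 1138.5, 394 and 572 FPKM in AZD0095 footprints and 650.1, 1136 and 900.5 FPKM in DMSO footprints, so that both groups reached the same height in 1 library, at a log2 fold change of -0.46 ± 0.34 (limma adjusted p = 0.79), which was -0.88 without AZD0095 replicate 1 and -0.11 without AZD0095 replicate 2. TKT footprints were tight, with 311, 310.0 and 273 FPKM in AZD0095 libraries and 268, 255 and 260 FPKM in DMSO libraries, and did not overlap, at 0.19 ± 0.24 (limma adjusted p = 0.89). PGD lay at 0.15 and PGLS at -0.37.

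**Figure D3:**
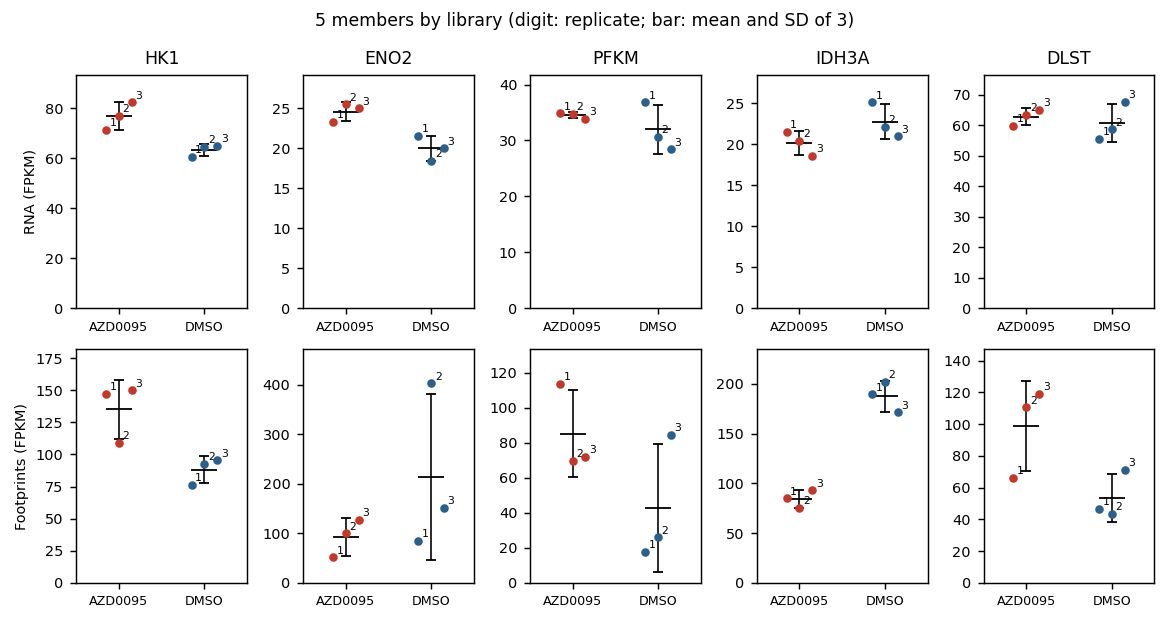
FPKM by library of HK1, ENO2, PFKM, IDH3A and DLST, RNA in the upper row and footprints in the lower, AZD0095 in red on the left and DMSO in blue on the right of each panel, with the replicate number beside each point and bars for the mean and SD of 3. IDH3A footprints lie at 75.2 to 92.9 FPKM in AZD0095 and 171 to 202 FPKM in DMSO, and ENO2 footprints in DMSO spread from 85.1 to 403 FPKM.

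The ratio of footprints to RNA is a common measure of how heavily an mRNA is loaded with ribosomes. It is given as the difference of the mean log2(FPKM + 1) values, and since the gene lengths behind the FPKM of each assay are not known, ratios of different genes are a description only. The median ratio of the glycolysis genes was 1.24 in AZD0095 and 1.21 in DMSO, at percentile 53.4 of all genes in AZD0095 and 53.9 in DMSO. The pentose phosphate genes had the highest median of the pathways, 1.87 in AZD0095 and 1.71 in DMSO (percentile 76.4 in AZD0095 and 71.1 in DMSO), and 4 of the 5 lay above the median of all genes in both treatments. The TCA group had a median of 1.19 in AZD0095 and 0.90 in DMSO (percentile 51.4 in AZD0095 and 42.0 in DMSO), beside 1.16 in AZD0095 and 1.1 in DMSO over all genes. With each footprint library taken alone, the TCA median was 0.83, 1.27 and 1.28 in AZD0095 and 0.88, 0.99 and 1.05 in DMSO. The treatments thus overlapped. The pentose phosphate median was 2.17, 1.32 and 2.13 over DMSO replicates 1 to 3, against 0.72, 1.26 and 1.38 for glycolysis.

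Within glycolysis the ratio spread widely. GAPDH was lowest, at -0.67 in AZD0095 and -0.61 in DMSO, which was percentile 3.44 of all genes in AZD0095 and 5.59 in DMSO. Its footprints were 1605, 2176 and 2257 FPKM in AZD0095 libraries and 1805, 2066 and 2131 FPKM in DMSO libraries, below those of ENO1, PKM and ALDOA, although GAPDH was the most abundant member in RNA. ENO1 led footprints with 4042 ± 743 FPKM in AZD0095 and 3806 ± 694 FPKM in DMSO (SD, n = 3 each). ALDOA had a ratio of 2.19 in AZD0095 and 2.22 in DMSO, and PGAM1 was low at 0.12 in AZD0095 and 0.44 in DMSO. ENO2 had the highest glycolytic ratio in DMSO, 3.06, and 1.78 in AZD0095, a value that rests in part on DMSO replicate 2.

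In the pentose phosphate pathway TALDO1 was highest, at 2.39 in AZD0095 and 2.91 in DMSO, and TKT lowest, at 1.07 in AZD0095 and 0.92 in DMSO. In the TCA group IDH3A was highest in DMSO, at 2.99, and stood at 2.01 in AZD0095, while SUCLA2 was highest in AZD0095 at 2.70, with 2.11 in DMSO. The malate dehydrogenases were also high, MDH2 with 2.34 in AZD0095 and 2.61 in DMSO and MDH1 with 1.99 in AZD0095 and 2.17 in DMSO. The lowest in DMSO was ACO1, whose product can also act as the iron regulatory protein, at -0.62, with -0.08 in AZD0095, and OGDH was lowest in AZD0095 at -0.28, with 0.28 in DMSO. ACO1 rested on 18, 52 and 123 footprint reads in AZD0095 libraries and 12, 15 and 34 in DMSO libraries.

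**Figure D4:**
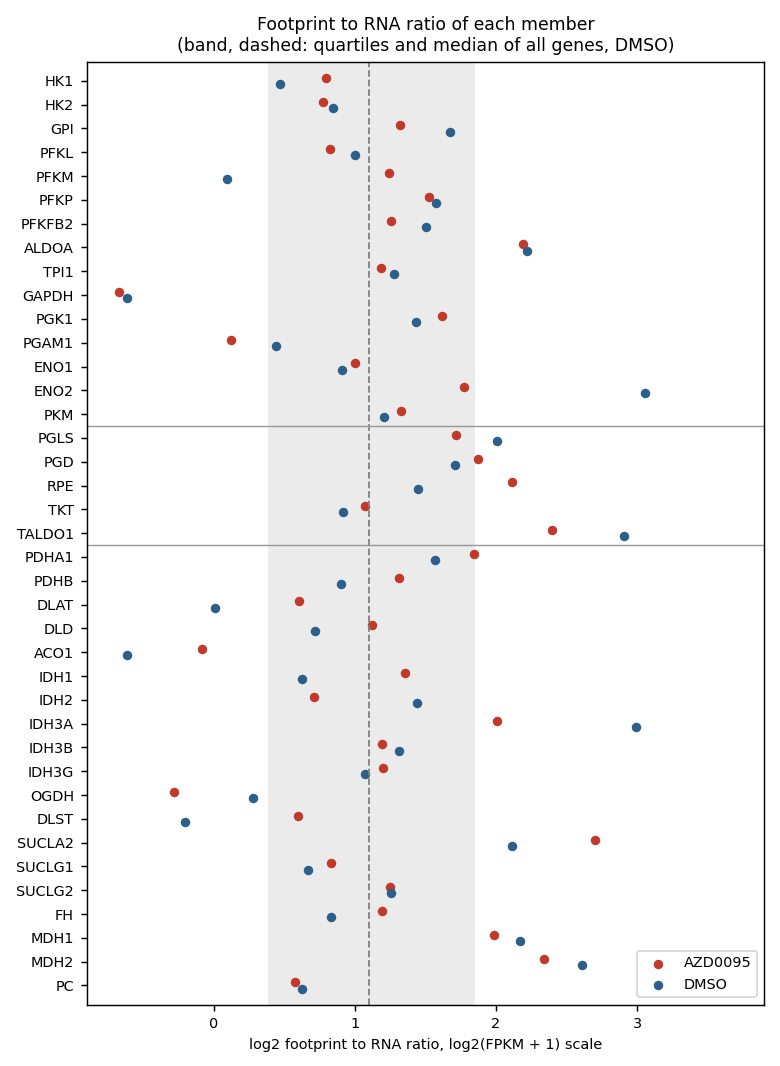
The log2 footprint to RNA ratio of each member in AZD0095 (red, above) and DMSO (blue, below), with the quartiles of all genes in DMSO as a grey band from 0.39 to 1.85 and their median of 1.1 dashed. GAPDH and ACO1 lie at the low end, and ENO2, IDH3A and TALDO1 at the high end in DMSO.

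The change of the ratio with AZD0095 was tested over all 12 libraries in 1 model with a term for assay by treatment. No member was called, nor any other gene (0.0% of all genes by limma). At an unadjusted p under 0.05 there were 2 of 39 members, both of the TCA group, against 8.53% of all genes. These were IDH3A, at -0.98 ± 0.27 (limma adjusted p = 0.45), and DLST, at 0.80 ± 0.36 (limma adjusted p = 0.57). This model held 1 variance per gene over both assays, although footprints spread more, so the SE of a ratio can be too small. In footprints alone the SE was 0.31 for IDH3A and 0.42 for DLST. With assay weights the limma adjusted p of the ratio was 0.74 for IDH3A and 0.80 for DLST.

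The median change of the ratio was -0.05 in glycolysis, 0.15 in the pentose phosphate pathway and 0.16 in the TCA group, beside 0.03 over all genes. In further listed genes it was 0.15 for glucose entry and glycolysis, 0.24 for pentose phosphate and 0.06 for pyruvate and TCA. The order of glycolysis and TCA was thus reversed in those genes. Among the members the extremes were ENO2, at -1.28 ± 0.65 (limma adjusted p = 0.60), and PFKM, at 1.15 ± 0.62 (limma adjusted p = 0.62), in glycolysis. In the pentose phosphate pathway they were RPE, at 0.67 ± 0.51, and TALDO1, at -0.51 ± 0.42. Leaving out 1 library moved the RPE value between 0.37 (without DMSO footprint replicate 2) and 1.03 (without DMSO footprint replicate 1), and the TALDO1 value between -0.93 (without AZD0095 footprint replicate 1) and -0.17 (without AZD0095 footprint replicate 2). ENO2 thus lay higher in RNA and lower in footprints, and its ratio value was -0.67 without DMSO footprint replicate 2. HK1, the called member, had a ratio change of 0.33 ± 0.25 (limma adjusted p = 0.75).

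Taking each pathway as a sum, glycolysis held 1.85% ± 0.0570 of the summed FPKM of all listed genes in AZD0095 RNA and 1.83% ± 0.0409 in DMSO RNA (SD, n = 3 each). In footprints its share was 1.205% ± 0.2004 in AZD0095 and 1.11% ± 0.158 in DMSO. The pentose phosphate genes held 0.0934% ± 0.00396 in AZD0095 RNA and 0.0928% ± 0.00133 in DMSO RNA, and 0.131% ± 0.0256 in AZD0095 footprints and 0.136% ± 0.0209 in DMSO footprints. The TCA group held 0.220% ± 0.00925 in AZD0095 RNA and 0.223% ± 0.00762 in DMSO RNA, and 0.220% ± 0.0240 in AZD0095 footprints and 0.208% ± 0.00649 in DMSO footprints. In each pathway and assay the means of the treatments differed by less than the larger of their standard deviations. GAPDH made up 37.3% ± 0.256 of the glycolytic RNA sum in AZD0095 and 36.9% ± 0.221 in DMSO, and 13.4% ± 0.686 of the glycolytic footprint sum in AZD0095 and 13.9% ± 0.604 in DMSO.

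**Figure D5:**
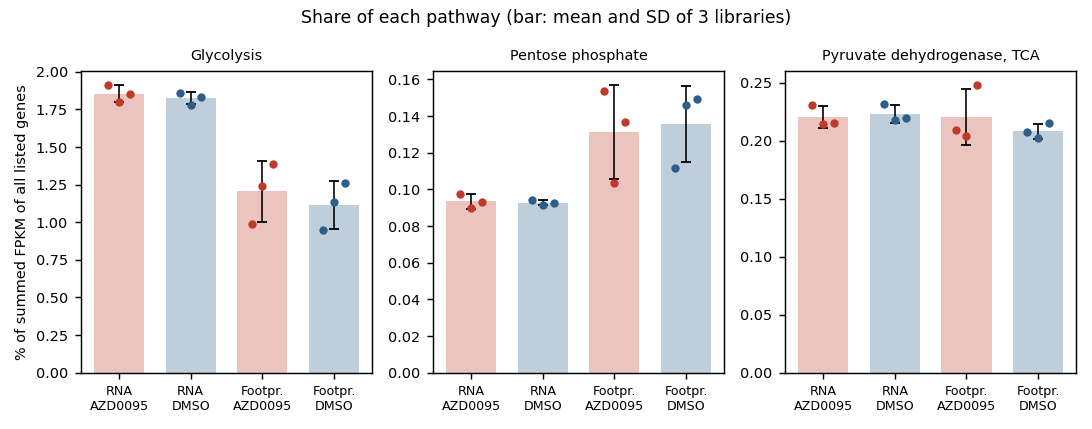
Share of the summed FPKM of all listed genes, in percent, held by each pathway in RNA and footprints (Footpr.), with bars for the mean of 3 libraries, error bars for the SD and a point per library, AZD0095 in red and DMSO in blue. Glycolysis takes a smaller share of footprints (1.205% in AZD0095, 1.11% in DMSO) than of RNA (1.85% in AZD0095, 1.83% in DMSO), the pentose phosphate pathway a larger one.

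Isoenzymes share a step, and the balance between them was described without a test. HK1 made up 72.8%, 73.9% and 74.1% of the summed HK1 and HK2 RNA in AZD0095 libraries, and 69.8%, 70.3% and 70.6% in DMSO libraries. No AZD0095 value overlapped a DMSO value. In footprints the share was 80.0%, 71.9% and 68.4% in AZD0095 libraries and 68.1%, 61.2% and 63.1% in DMSO libraries, where AZD0095 replicate 3 was just above DMSO replicate 1. Of the phosphofructokinases PFKP held 64.4% ± 0.918 of RNA in AZD0095 and 63.4% ± 1.67 in DMSO, with PFKM at 20.5% in both and the liver-type PFKL at 15.1% ± 0.216 in AZD0095 and 16.1% ± 0.736 in DMSO.

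ENO2 was a small part of the enolase RNA, 1.22% ± 0.0800 in AZD0095 and 0.985% ± 0.0699 in DMSO. In footprints ENO2 made up 1.54%, 2.37% and 2.61% of the enolases in AZD0095 libraries and 2.59%, 9.92% and 3.20% in DMSO libraries. IDH3A made up 30.9%, 21.7% and 23.9% of the footprints of the 3 NAD isocitrate dehydrogenase subunits in AZD0095 libraries, and 35.5%, 47.2% and 43.5% in DMSO libraries, against 15.8% ± 1.03 of their RNA in AZD0095 and 17.4% ± 1.72 in DMSO. IDH1 made up 88.2%, 85.0% and 73.9% of IDH1 and IDH2 footprints in AZD0095 libraries and 67.1%, 61.7% and 65.9% in DMSO libraries, while in RNA it was 76.2% ± 2.99 in AZD0095 and 77.4% ± 2.82 in DMSO. SUCLA2 made up 65.5%, 65.1% and 47.1% of the SUCLA2 and SUCLG2 footprints in AZD0095 libraries and 53.6%, 38.9% and 61.2% in DMSO libraries. Of 9 such shares described, the treatments did not overlap in 2 in RNA (HK1 and ENO2) and in 3 in footprints (HK1, IDH1 and IDH3A), and overlapped in the others, those of the 3 phosphofructokinases and of SUCLA2 included. For single genes the groups did not overlap in 17.7% (higher) and 11.5% (lower) of all genes in RNA. In footprints these values were 7.19% (higher) and 5.77% (lower). They are for genes and not for shares, for which no such background was made. The shares also depend on each other in part, and those without overlap belong to genes that did not overlap singly.

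Of 55 further genes around these pathways, 35 were listed. In RNA 4 rose, 0 fell and the other 31 missed the threshold, beside 5.03% of all genes called higher and 3.01% lower, and the median log2 fold change was 0.05, beside 0.01 over all genes. None passed in footprints or in the ratio. The risen genes were the glucose transporter SLC2A3, with 11.1 ± 0.826 FPKM in AZD0095 and 5.92 ± 0.561 FPKM in DMSO (log2 fold change 0.81, limma adjusted p = 0.0030), and PFKFB3, a relative of PFKFB2, with 22.2 ± 0.104 FPKM in AZD0095 and 16.8 ± 0.904 FPKM in DMSO (0.39, limma adjusted p = 0.014). The others were GOT1, the cytosolic aspartate transaminase of the malate-aspartate shuttle (0.37, limma adjusted p = 0.029), and SLC25A1, the mitochondrial citrate carrier (0.27, limma adjusted p = 0.030). PFKFB3 footprints lay lower without overlap, at 47.5, 44.7 and 49.7 FPKM in AZD0095 libraries and 88.9, 63.4 and 58.3 FPKM in DMSO libraries. The log2 fold change was -0.54 ± 0.42 in footprints (limma adjusted p = 0.79) and -0.92 ± 0.33 in the ratio (limma adjusted p = 0.47). In footprints SLC2A3 was at 0.78, GOT1 at 0.09 and SLC25A1 at 0.03, each with overlapping groups.

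The members called or named at the extremes are annotated in hg38 coordinates (RefSeq, GRCh38.p14) as follows. HK1, ENSG00000156515, lies on chromosome 10 from 69270000 to 69401882, and ENO2, ENSG00000111674, on chromosome 12 from 6914580 to 6923697. PFKM, ENSG00000152556, lies on chromosome 12 from 48105353 to 48146404, IDH3A, ENSG00000166411, on chromosome 15 from 78149362 to 78171945, and DLST, ENSG00000119689, on chromosome 14 from 74881916 to 74903743. The values are per gene, so exons and transcripts are not resolved.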

How the data were processed

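RNA-seq and ribosome profiling were run on MDA-MB-231 cells in 12 libraries. Per the labels' protocols, footprints came from cycloheximide-treated lysate freed of nuclei and mitochondria, digested with RNase I and depleted of rRNA; the titles name total RNA and the molecule field polyadenylated RNA for the RNA libraries, which is not settled here. Per the file headers, the authors deposited FPKM values per gene; the tools fastp, Bowtie2 and STAR and the build hg38 come from the submitters' processing notes, without roles or versions, and no source used here gives the read counter or annotation.

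Of 6785 listed genes, 8 repeated entries were removed. RNA, footprints and their ratio (interaction of assay and treatment) were compared with limma 3.58.1 in R 4.3.3 on log2(FPKM + 1), two-sided, with a variance trend and Benjamini-Hochberg adjustment over 6777 genes, a gene being called at an adjusted p under 0.05. The pseudocount makes the fold changes of low genes smaller. The filter on a mean FPKM of at least 1 removed no gene. The footprint depth was recovered from FPKM steps, which are whole multiples of 1 read: whole reads, within 0.005 of a read, were found for 1114 genes (16.4%). No such step was found for RNA. Scripts were tested on simulated data.

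Named were members called, extreme in level, ratio or change in their pathway, the isoenzymes, and genes of much used or regulated steps. The members and lists were chosen with earlier results of these data known. Python 3.11.15 was used. Alternatives were another pseudocount, filter, scaling or prior, the replicate number as a block, assay weights and leaving out libraries.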

Additional observations from a re-analysis of the deposited data

How the results depend on the processing

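The number of genes called in RNA was 545. It was 1622 with the replicate number as a block, 1395 with replicates 2 and 3 alone and 100 to 1112 leaving out 1 RNA library (1112 without AZD0095 replicate 1, 100 without DMSO replicate 2), and within 1.5 times of 545 with a pseudocount of 0.1, a filter at a mean FPKM of 5, median centring, quantile normalization and a constant prior variance. Same-numbered RNA libraries correlated at 0.62, 0.086 and 0.49 in their deviations from the group means. AZD0095 replicates 1 and 3 correlated best with their own number in DMSO, and AZD0095 replicate 2 with DMSO replicate 3. The labels give only a number, so a shared effect of replicates was not settled, and the main test held no term for it. With the block, HK1 had an adjusted p of 0.0030, ENO2 was called (0.022) and so was SUCLA2 (0.037). With replicates 2 and 3 alone HK1 (0.0030), ENO2 (0.0031), SUCLA2 (0.039) and PFKM (0.046) were called, and without AZD0095 replicate 1 HK1 (0.0095), ENO2 (0.028) and SUCLA2 (0.047). HK1 was not called with median centring (0.060), quantile normalization (0.072) or a constant prior (0.061); its log2 fold change ran from 0.23 to 0.33 over all alternatives. The cause was not tested. Footprints gave 0 calls under every alternative. The ratio gave 1 with a constant prior and 0 to 4 leaving out 1 library (4 without DMSO footprint replicate 1, 3 without replicate 2), no member among them.

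The log2 fold change took the other sign under at least 1 alternative for 14 of 39 members in RNA, 17 in footprints and 14 in the ratio, none of them called. In RNA these included PKM and PGD, and in footprints PFKP, GAPDH, HK2 and SUCLA2, among others. PKM RNA, at 0.0021, was at -0.0525 with quantile normalization, -0.0091 with replicates 2 and 3 alone and -0.017 to 0.0274 leaving out 1 library, negative without AZD0095 replicate 1, AZD0095 replicate 3 or DMSO replicate 2. PGD RNA, at -0.0156, was at -0.0644 to 0.015 leaving out 1 library, positive without AZD0095 replicate 1 or 2. The median ratio of the TCA group in DMSO, 0.90, was 0.85 to 1.00 leaving out 1 replicate number. Without the 20 highest other genes the shares of summed FPKM were larger in every group, glycolysis reaching 2.20% in AZD0095 RNA and 2.16% in DMSO RNA. Depth limits the footprint values of members with few reads, such as PFKFB2, IDH2 and PC, and intervals from reads would cover counting error only.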
